A study of Mus musculus with 6 samples.

Results

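Retinoic acid pathway genes were followed in mouse embryonic stem cells with and without human *HOXA13*. The 9 genes were chosen by symbol, as a set that covers receptors, intracellular binding proteins, breakdown enzymes and an enzyme that reduces retinal, and all 9 were among the 24393 features of the count tables. They are the receptor genes *Rara*, *Rarb*, *Rarg* and *Rxra*, the binding protein genes *Crabp1* and *Crabp2*, the breakdown enzyme genes *Cyp26a1* and *Cyp26b1*, and the retinal reductase gene *Dhrs3*. RNA was sequenced in bulk from 3 control and 3 *HOXA13*-overexpressing cultures of KH2 cells, a mouse embryonic stem cell line made for inserting transgenes at a fixed locus. The overexpressing cells carry a FLAG-tagged human *HOXA13* gene whose expression is switched on by doxycycline, whereas the control cells have the genotype CONTROL in the labels. Both groups are given as strain C57/BL/6 and as undifferentiated cells, grown with LIF and serum on irradiated 3T3-Swiss albino fibroblasts, and the labels list no treatment for either group. The study's methods call the 3 of a group biological replicates, chosen after targeted clones had been checked, and do not say whether each is a clone of its own, so that p-values measure the spread between these libraries only.

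Retinoic acid is made from retinol in steps, first to retinal and then to the acid, and DHRS3 turns retinal back to retinol. Inside the cell the acid is carried by CRABP1 and CRABP2, is broken down by enzymes of the CYP26 family, and binds the nuclear receptors RARA, RARB and RARG, which act on DNA as partners of RXR proteins such as RXRA. In embryos and in embryonic stem cells the pathway is known for patterning the body axis, for activating *HOX* genes in their cluster order and for promoting differentiation. *Cyp26a1* and *Rarb* are textbook targets of the receptors themselves, through direct repeats of a 6-base motif in their promoters.

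Those repeats are shown here because *Rarb* and *Cyp26a1* were the only members with one in the windows searched. Promoter windows of 300 bases, from 250 bases before to 50 bases after a transcription start, were taken from RefSeq (GRCm38.p6) and matched letter for letter to mm9. Windows were at hand for 8 of the 9 members (15 windows), and *Crabp2* had none. Repeats were searched on both strands as 2 copies in the same direction of the motif AGGTCA or of its variants with 1 or 2 other letters (AGTTCA, the form GGGTCA and the form GGTTCA), separated by 5, 2 or 1 bases. The *Rarb* window lies on the minus strand of mm9 at chr14:17407941-17408240, inside the annotated gene, at a start downstream of the most distal one. The *Cyp26a1* window lies on the plus strand at chr19:37772048-37772347. Both are written 5′ to 3′ on the strand of the gene, with the 2 motif copies in capitals.
*Rarb* promoter: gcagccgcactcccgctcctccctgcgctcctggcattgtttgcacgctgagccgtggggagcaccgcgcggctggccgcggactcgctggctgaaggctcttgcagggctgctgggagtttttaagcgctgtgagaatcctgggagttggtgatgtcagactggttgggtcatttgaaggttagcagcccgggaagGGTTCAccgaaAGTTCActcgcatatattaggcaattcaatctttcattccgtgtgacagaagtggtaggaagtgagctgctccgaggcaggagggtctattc
*Cyp26a1* promoter: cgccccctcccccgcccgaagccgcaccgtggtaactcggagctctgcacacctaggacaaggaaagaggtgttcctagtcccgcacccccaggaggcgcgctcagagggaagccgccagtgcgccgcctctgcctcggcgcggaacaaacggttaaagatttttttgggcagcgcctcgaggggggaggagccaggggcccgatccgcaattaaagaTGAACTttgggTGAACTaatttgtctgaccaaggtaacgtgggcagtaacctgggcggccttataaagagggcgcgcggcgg
In *Rarb* the repeat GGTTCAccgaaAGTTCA ran from base -53 to base -37 relative to the start. In *Cyp26a1* it ran from -32 to -16 on the opposite strand, where it reads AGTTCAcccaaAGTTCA. Both had the spacing of 5, which was found in 32 of 32851 mouse promoter windows (0.0974%), while spacing 2 was found in 88 (0.268%) and spacing 1 in 73 (0.222%). Neither repeat overlapped one of another spacing, and no repeat of these 3 spacings was found in the windows of *Rara*, *Rarg*, *Rxra*, *Crabp1*, *Cyp26b1* and *Dhrs3*.

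Libraries held 13494135 to 21766589 counts, at which 3 counts, taken as the smallest level a library can show, equal 0.138 to 0.222 CPM (counts scaled to a common library size), for counting error only. The feature ENSG00000106031, one of 2 human identifiers in the tables, was counted 6, 0 and 0 times in the control libraries and 4298, 4177 and 2881 times where *HOXA13* was overexpressed. All 10 embryonic stem cell markers passed the filter, with *Pou5f1* between 633 and 783 CPM in all 6 libraries, but 4 of the 10 were higher with *HOXA13*, among them *Klf4* (log2 fold change 1.14), and 2 were lower, *Tdgf1* (-1.09) and *Fgf4* (-1.02). The control libraries stood apart from each other in markers of the primitive streak, the structure from which mesoderm and endoderm arise. Those 10 genes summed to 461, 46.3 and 211 CPM in control replicates 1, 2 and 3, and to 23.4, 24.0 and 21.1 CPM with *HOXA13*. The 16 fibroblast markers, which the feeder cells could supply, summed to 4825, 7474 and 7350 CPM in control and to 6831, 8050 and 8524 CPM with *HOXA13*, and 0 of the 16 passed the threshold in edgeR's test on all 6 libraries without a block (1 at an unadjusted p under 0.05). DESeq2 gave 1 as higher, and edgeR gave 2 as higher without control replicate 2 and 1 as higher and 1 as lower without control replicate 1. In bulk RNA, fewer cells of a type and less RNA per cell cannot be told apart.

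Of the 9 members, 8 passed the filter on low counts and entered the quasi-likelihood test of edgeR, in which p was adjusted by Benjamini-Hochberg over 13846 genes and the threshold was 0.05. *Rarb* was higher in *HOXA13*-overexpressing cells, *Rara* and *Crabp1* were lower, and *Rarg*, *Rxra*, *Crabp2*, *Cyp26b1* and *Dhrs3* did not pass. Across all tested genes 27.7% passed, 14.4% as higher and 13.3% as lower, and against this background 3 of 8 is no sign that the members differ from other genes. With library size alone the split of all calls turned from 1994 higher and 1842 lower to 1576 higher and 2500 lower. The median log2 fold change of the 8 was -0.30, beside 0.00 for all genes tested. The libraries of the groups did not overlap for *Rara*, *Rarb*, *Crabp1* and *Crabp2*, which is 4 of 8, against 45.7% of all genes tested. *Cyp26a1*, the ninth member, was too low for the filter and is described by its counts.

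**Figure D1:**
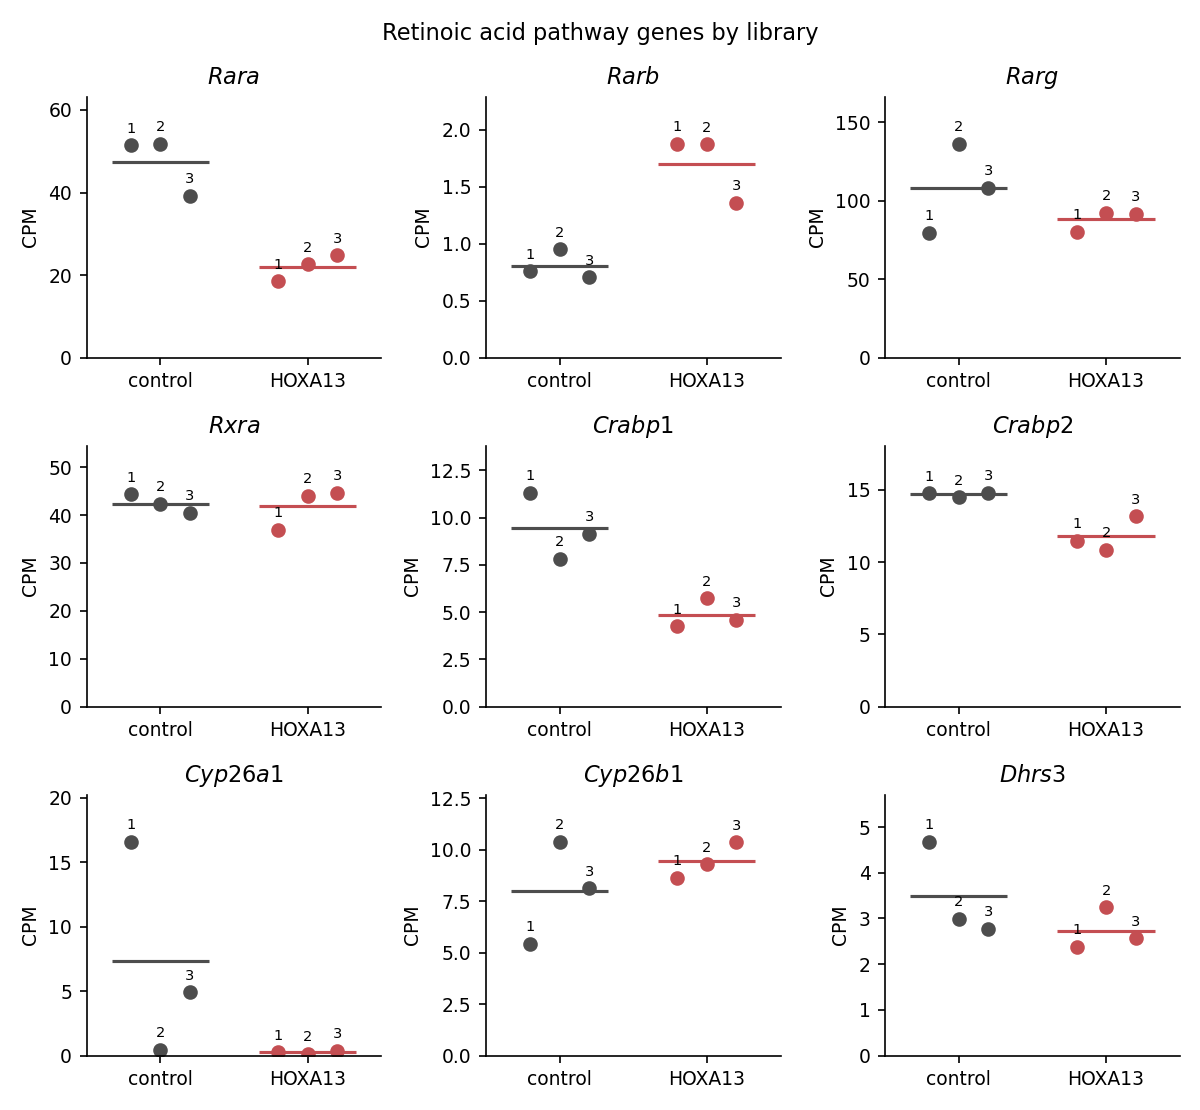
Level of each of the 9 members in CPM (y axis, from 0) in the 3 control (grey) and 3 HOXA13-overexpressing (red) libraries, with replicate numbers beside the points and group means as lines. The groups separate for Rara, Rarb, Crabp1, Crabp2 and Cyp26a1, and the 3 control points of Cyp26a1 spread from 0.476 to 16.6 CPM.

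Among the receptors, *Rara* fell and *Rarb* rose. *Rara* (mm9 chromosome 11, from 98789132 to 98836256, plus strand) encodes the alpha receptor, which is found in most tissues. Its level was 51.4, 51.8 and 39.3 CPM in the control libraries and 18.5, 22.6 and 24.8 CPM in the *HOXA13*-overexpressing libraries, from 1153, 763 and 777 counts and from 365, 411 and 328 counts. Every control library lay above every *HOXA13* library. The means were 47.5 ± 7.14 and 22.0 ± 3.18 CPM (SD, n = 3), so that control stood 2.2-fold above *HOXA13* (log2 fold change -1.12, standard error 0.14, adjusted p = 0.00120). *Rara* kept its call under all 15 alternative settings, at log2 fold changes between -1.24 and -1.0.

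*Rarb* (chromosome 14, from 17263356 to 17651381, minus strand) encodes the beta receptor, which is itself induced by retinoic acid in many cells. It was the receptor with the fewest counts, 17, 14 and 14 in control and 37, 34 and 18 with *HOXA13*. These correspond to 0.758, 0.951 and 0.707 CPM and to 1.88, 1.87 and 1.36 CPM, again without overlap. The means were 0.806 ± 0.129 and 1.70 ± 0.297 CPM (SD, n = 3), which is 2.15-fold higher with *HOXA13* (log2 fold change 1.10, standard error 0.27, adjusted p = 0.0186). With so few counts the call was less firm than that of *Rara*: it held in 11 of 15 alternatives and was lost with DESeq2 (adjusted p = 0.0513), without control replicate 3 (0.0690), without *HOXA13* replicate 1 (0.0862) and without *HOXA13* replicate 2 (0.0877). The median over the 470 tested genes of chromosome 14 was 0.26 on the log2 scale, and after each chromosome was centred *Rarb* stood at 0.81 (adjusted p = 0.0485).

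*Rarg* (chromosome 15, from 102065369 to 102087948, minus strand) encodes the gamma receptor, the main RAR of embryonic stem cells in these libraries by level. It was measured at 79.7, 136 and 108 CPM in control and at 80.2, 92.4 and 91.8 CPM with *HOXA13*. The groups overlapped, through control replicate 1, and the difference lay within the spread of the libraries (log2 fold change -0.29, standard error 0.17, adjusted p = 0.245). Without control replicate 1 the log2 fold change was -0.47 and passed the threshold (adjusted p = 0.00778). *Rxra* (chromosome 2, from 27531960 to 27618477, plus strand), the shared partner of the RARs, was at 44.3, 42.3 and 40.4 CPM in control and at 36.9, 44.0 and 44.7 CPM with *HOXA13*. Its log2 fold change was -0.02 (standard error 0.09, adjusted p = 0.900), with groups that overlapped, and it passed under none of the 15 alternatives.

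**Figure D2:**
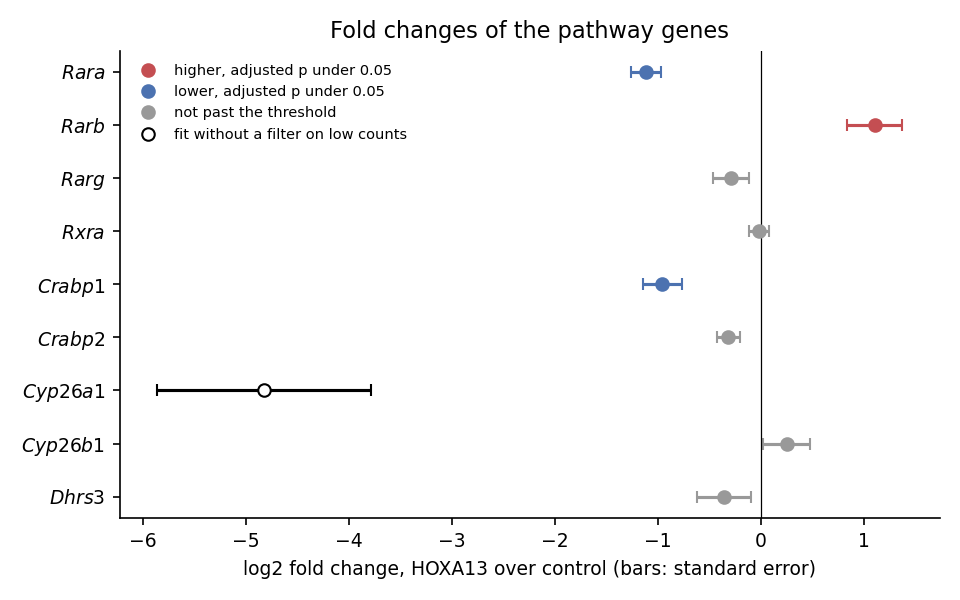
Log2 fold change of each member, HOXA13 over control (x axis), with its standard error as a bar; filled points come from the fit on 13846 genes and the open point of Cyp26a1 from the fit without a filter on low counts. Rarb lies to the right at 1.10, Rara and Crabp1 lie to the left at -1.12 and -0.96, and Cyp26a1 lies furthest left at -4.82.

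The makeup of the RAR family was compared within each library, where depth and normalization cancel. CPM were divided by the kilobases of exon annotated for each gene (4573 bases for *Rara*, 3293 for *Rarb* and 4109 for *Rarg*) and each gene was given as a percentage of the 3 summed. *Rara* made up 36.4, 25.3 and 24.4% in control and 16.8, 17.7 and 19.2% with *HOXA13*. *Rarg* made up 62.8, 74.1 and 75% in control and 80.8, 80.3 and 79.3% with *HOXA13*, and *Rarb* 0.746, 0.645 and 0.611% against 2.36, 2.03 and 1.47%. For all 3 shares the groups did not overlap, and they are not independent, since together they make up the whole. *Rarg* was thus the largest share in each library and *Rarb* the smallest, also where *Rarb* was higher. The mean share of *Rarg* was 70.6 ± 6.76% in control and 80.1 ± 0.791% with *HOXA13* (SD, n = 3), and the control spread came mostly from replicate 1. Without that library the difference in the *Rarg* share was 5.63 percentage points in place of 9.5, and that in the *Rara* share was -6.96 in place of -10.8. An exact permutation test (two-sided) gave p = 0.10 for each of 5 within-library ratios, 0.10 after adjustment over the 5, which is the smallest value that 3 libraries against 3 can give.

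**Figure D3:**
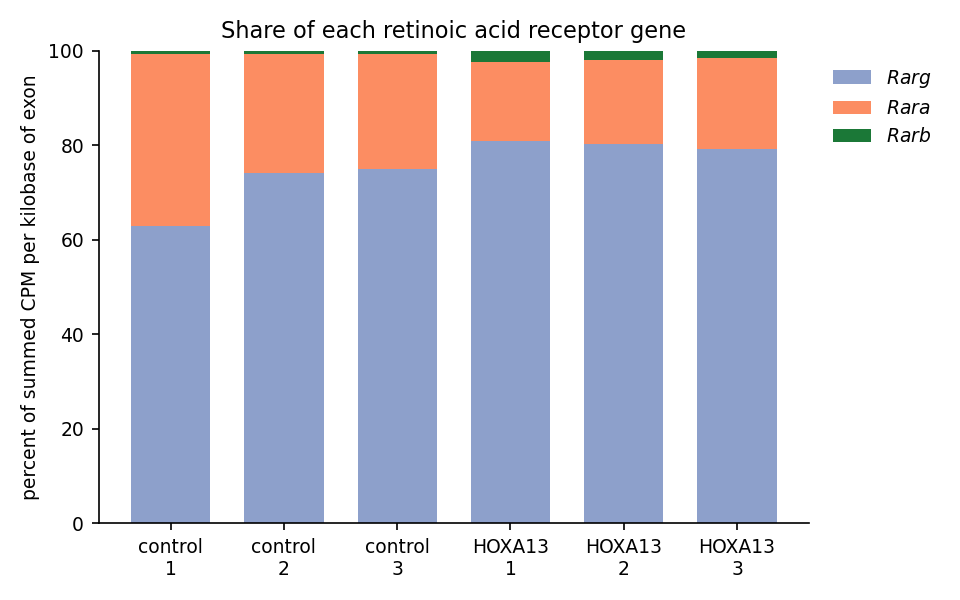
Stacked bars of the share of Rarg (blue), Rara (orange) and Rarb (green) in the summed level of the 3 genes (y axis, percent of CPM per kilobase of exon) in each of the 6 libraries. Rarg takes 62.8 to 75% in control and 79.3 to 80.8% in HOXA13-overexpressing libraries.

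Of the binding proteins, *Crabp1* fell while *Crabp2* did not pass the test. *Crabp1* (chromosome 9, from 54612555 to 54620917, plus strand) encodes a carrier associated with the metabolism of retinoic acid in the cytoplasm. It was at 11.3, 7.81 and 9.15 CPM in control and at 4.27, 5.72 and 4.61 CPM with *HOXA13*, from 254, 115 and 181 counts and from 84, 104 and 61 counts. No *HOXA13* library reached the lowest control library. The means of 9.43 ± 1.77 and 4.87 ± 0.762 CPM (SD, n = 3) differed by -0.96 on the log2 scale (standard error 0.19, adjusted p = 0.00774), and the call held in all 15 alternatives, with adjusted p between 0.000294 and 0.0487. Neural markers, which are relevant because *Crabp1* is also known from neural tissue of embryos, moved in the same direction: 3 of the 4 tested (*Pax6*, *Tubb3* and *Nes*) were lower, and the list of 7 summed to 418, 228 and 296 CPM in control and to 101, 108 and 106 CPM with *HOXA13*, with *Neurog2* at 0.136 CPM or less in all libraries. Their part in the result was not tested.

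*Crabp2* (chromosome 3, from 87752588 to 87757298, plus strand) encodes the carrier that passes retinoic acid to the RARs in the nucleus. Its control libraries lay close together at 14.8, 14.5 and 14.8 CPM, and its *HOXA13* libraries were at 11.5, 10.8 and 13.2 CPM. All 3 *HOXA13* libraries lay below the controls, but the log2 fold change of -0.32 (standard error 0.11) did not pass the threshold (adjusted p = 0.0664). Of the 15 alternatives it passed only with library size alone, without TMM factors (adjusted p = 0.0345). *Fabp5*, which encodes another carrier of retinoic acid, one that hands it to the receptor PPARD, rose from 15.8, 9.31 and 12.4 CPM to 32.2, 34.5 and 36.3 CPM (log2 fold change 1.45, standard error 0.17, adjusted p = 0.000761). Per kilobase of exon, the ratio of *Fabp5* to *Crabp2* was 0.396, 0.238 and 0.310 in control and 1.04, 1.18 and 1.02 with *HOXA13*. The ratio of *Crabp1* to *Crabp2* was 1.26, 0.890 and 1.02 in control and 0.613, 0.870 and 0.578 with *HOXA13*. Neither ratio overlapped between the groups, though for *Crabp1* the lowest control and the highest *HOXA13* library were close.

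*Cyp26a1* had by far the widest range of the members. It lies on chromosome 19 from 37772298 to 37776018 on the plus strand and encodes the main enzyme that clears retinoic acid in the early embryo. Control libraries 1, 2 and 3 held 372, 7 and 97 counts and the *HOXA13* libraries held 5, 3 and 5. In CPM these were 16.6, 0.476 and 4.90 in control and 0.254, 0.165 and 0.378 with *HOXA13*. The groups did not overlap, but control replicate 2 lay closer to the *HOXA13* libraries than to either other control. The highest control was 34.9-fold above the lowest, and controls 1, 2 and 3 stood 62.4-fold, 1.79-fold and 18.4-fold above the *HOXA13* mean of 0.266 ± 0.107 CPM (SD, n = 3). The control mean of 7.32 ± 8.32 CPM (SD, n = 3) was 27.6-fold higher, and without control replicate 1 it was 2.69 CPM.

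The filter, which asks for at least 0.531 CPM in 3 libraries, removed *Cyp26a1*. An exact permutation test of its log2 CPM (two-sided) gave p = 0.10, the smallest value this design allows. Without a filter, a setting under which 20.8% of 18930 genes passed, its log2 fold change was -4.82 (standard error 1.04, adjusted p = 0.00713), and DESeq2 gave -4.80 (adjusted p = 0.00125). With a library left out, the filter kept *Cyp26a1* only through control replicates 1 and 3, where it was high, so that those fits are no support for a difference. Without *HOXA13* replicates 1, 2 and 3 in turn the adjusted p was 0.0981, 0.0828 and 0.0657, at log2 fold changes of -4.81, -4.57 and -5.10. Without control replicate 2, the lowest control, the log2 fold change was -5.38 (adjusted p = 0.000194), in a fit with the same limit.

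The order of the control libraries in *Cyp26a1*, with replicate 1 highest and replicate 2 lowest, was also that of *Crabp1* and of the streak genes *T*, *Mixl1*, *Fgf8* and *Wnt3*. All other members had another order, and total counts had the same order. In *Crabp1* the highest control was only 1.45-fold above the lowest, against 13.1-fold or more in these streak genes. How many of all genes share this order was not counted. *T*, which encodes brachyury and marks nascent mesoderm, was at 181, 10.5 and 85.2 CPM in control and at 1.37, 2.48 and 2.27 CPM with *HOXA13*. Of the 10 streak markers 8 were tested and 6 were lower with *HOXA13*, and *Mesp1* and *Cer1* were at 0 in all 3 *HOXA13* libraries, and *Mesp1* was also at 0 in control replicate 2 and *Cer1* in control replicates 2 and 3. Their part in the *Cyp26a1* values was not tested. The genes with the nearest profile were sought among 12012 genes as the smallest root mean square difference of log2 CPM over the 6 libraries, after each gene was centred. For *Cyp26a1* they were *Gbp2* (0.38), *Ppp4r4* (0.56) and *Mixl1* (0.59), while the log2 CPM of *Cyp26a1* itself had an SD of 2.40. *Gbp2*, an interferon-induced GTPase gene, was at 156, 6.66 and 34.0 CPM in control and at 4.01, 3.41 and 3.02 CPM with *HOXA13*. *Mixl1*, a homeobox gene of the streak, was at 40.4, 1.90 and 8.94 CPM and at 0.305, 0.605 and 0.454 CPM.

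**Figure D4:**
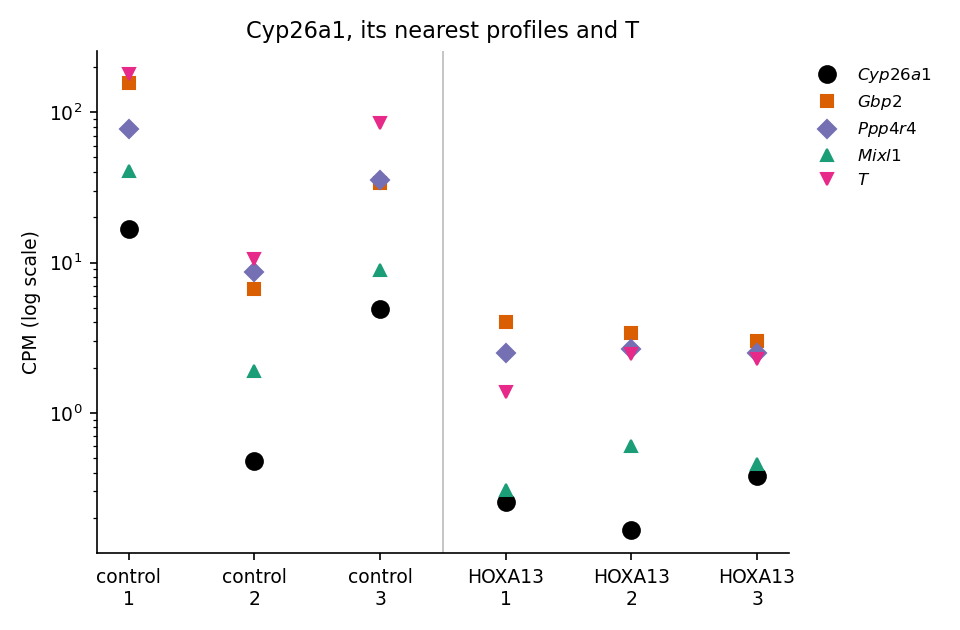
CPM (y axis, log scale) of Cyp26a1, of the 3 genes with the nearest profile (Gbp2, Ppp4r4 and Mixl1) and of T in each control and HOXA13-overexpressing library. All 5 genes are highest in control replicate 1, and in control replicate 2 Cyp26a1 lies at 0.476 CPM, near its HOXA13 values of 0.165 to 0.378 CPM.

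The other members did not pass the test. *Cyp26b1* (chromosome 6, from 84521938 to 84543740, minus strand), a second enzyme that clears retinoic acid and is known from limb and hindbrain, was at 5.44, 10.4 and 8.14 CPM in control and at 8.63, 9.30 and 10.4 CPM with *HOXA13*. The groups overlapped, and the test did not pass (log2 fold change 0.25, standard error 0.23, adjusted p = 0.456). It was lowest in control replicate 1, the library in which *Cyp26a1* was highest. In that library the fibroblast markers also had their lowest sum, 4825 CPM. The part of feeder cells in the *Cyp26b1* values was not tested. *Dhrs3* (chromosome 4, from 144482730 to 144518112, plus strand) encodes the enzyme that returns retinal to retinol. Its levels were 4.68, 2.99 and 2.78 CPM in control and 2.39, 3.25 and 2.57 CPM with *HOXA13*, which overlapped (log2 fold change -0.36, standard error 0.26, adjusted p = 0.348). Without control replicate 1 this log2 fold change was -0.07.

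Levels of different members can be set beside each other only per length of exon. In control, *Rarg* was highest at 26.3 ± 6.90 CPM per kilobase, above *Crabp1* (11.8 ± 2.21), *Crabp2* (11.1 ± 0.136) and *Rara* (10.4 ± 1.56), whose ranges overlapped as neighbours in this order. *Rxra* followed at 7.76 ± 0.357. *Cyp26a1* (4.13 ± 4.69), *Cyp26b1* (1.74 ± 0.539) and *Dhrs3* (1.19 ± 0.356) could not be ordered beyond their spread, and *Rarb* had the lowest mean at 0.245 ± 0.0391 CPM per kilobase (all SD, n = 3). The range of *Cyp26a1* overlapped those of *Rxra* and *Rarb*, and in control replicate 2 *Cyp26a1* (0.268) lay below *Rarb* (0.289). With *HOXA13*, *Rarg* was again highest at 21.4 ± 1.67, followed by *Crabp2* at 8.94 ± 0.903. *Rxra* (7.66 ± 0.786), *Crabp1* (6.07 ± 0.951) and *Rara* (4.81 ± 0.695) overlapped as neighbours. *Cyp26b1* (2.05 ± 0.189), *Dhrs3* (0.934 ± 0.155), *Rarb* (0.517 ± 0.0902) and *Cyp26a1* (0.150 ± 0.0603 CPM per kilobase) came after them without overlap.

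Nearest profiles were also sought for the 2 receptors past the threshold. For *Rara* (SD of log2 CPM 0.64) they were *Ccdc114*, *Cd34* and *Elavl3*, at root mean square differences of 0.04, 0.08 and 0.09. *Ccdc114*, the nearest, was at 10.1, 10.1 and 7.02 CPM in control and at 3.50, 4.13 and 4.61 CPM with *HOXA13*. *Elavl3*, a neuronal RNA-binding protein gene and the farthest of the 3, was at 7.58, 8.09 and 6.82 CPM in control and at 2.94, 3.25 and 4.16 CPM with *HOXA13*. For *Rarb* (SD 0.57) they were *Lin9*, *Mgat4a* and *Adck3*, at 0.07, 0.10 and 0.10. All 3 lie on chromosome 1, where the median of the 778 tested genes was 0.38 on the log2 scale and 56.2% passed the threshold. *Rarb* lies on chromosome 14, which had the next highest median (0.26, with 32.3% past the threshold). Every other chromosome had a median of 0.024 or less. *Lin9* was at 32.8, 42.5 and 31.9 CPM in control and at 75.4, 75.7 and 63.6 CPM with *HOXA13*.

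The rest of the pathway was read from a list of 63 genes, of which 62 were in the tables and 43 were tested. Of the 43, 9 were higher with *HOXA13*, 8 were lower and 26 did not pass, with a median of 0.11 on the log2 scale, where 27.7% of all genes passed. Without *HOXA13* replicate 1, 2 or 3 in turn the 17 calls became 11, 10 and 9. In retinol uptake and binding 2 of 7 genes were tested, among them *Fabp5*, which is described above. *Stra6*, the gene of the retinol uptake receptor, had at most 13 counts in any library and was not tested.

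Among the enzymes that interconvert retinol and retinal, 1 of 10 tested was higher and 1 was lower. *Rdh10*, the main retinol dehydrogenase gene of the embryo, was at 13.9, 13.9 and 16.6 CPM in control and at 20.7, 19.4 and 18.7 CPM with *HOXA13* (log2 fold change 0.40, adjusted p = 0.0263). It lies on chromosome 1, and after each chromosome was centred its log2 fold change was 0.03 (adjusted p = 0.894). Its call was lost in 6 of the 15 alternatives, which include library size alone and the fits without any 1 *HOXA13* library. *Rdh11*, which encodes a retinal reductase, fell from 40.0, 24.1 and 29.6 CPM to 18.9, 17.7 and 19.0 CPM (log2 fold change -0.76, adjusted p = 0.0137), a call lost without any 1 of the 3 *HOXA13* libraries. Of the enzymes that oxidize retinal to retinoic acid, 0 of 3 tested passed with edgeR, and 0 with DESeq2 or at an unadjusted p under 0.05: *Aldh1a2*, the main one of the embryo, had a log2 fold change of -0.14 (adjusted p = 0.574), *Aldh1a1* of 0.27 and *Aldh1a3* of -0.30. *Cyp26c1*, the remaining gene of the CYP26 family, lay between 0.0505 and 0.110 CPM and was not tested.

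Of 12 other receptor and cofactor genes tested, 4 were higher and 3 were lower. *Rxrg*, the RXR gene of muscle and nervous tissue, fell from 2.1, 1.09 and 2.22 CPM to 1.02, 0.385 and 0.454 CPM (log2 fold change -1.52, standard error 0.43, adjusted p = 0.0337), a call lost without control replicate 3 and without *HOXA13* replicates 2 or 3. *Rxrb*, the most abundant RXR gene per kilobase (17.4 ± 0.343 in control and 15.3 ± 0.692 CPM per kilobase with *HOXA13*, SD, n = 3), did not pass (adjusted p = 0.0711). The coactivator gene *Ncoa1* fell by 0.40 on the log2 scale (adjusted p = 0.00871) under all 15 alternatives. The coactivator gene *Kat2b* rose by 0.61 (adjusted p = 0.00698), also under all 15. *Ncoa2* (0.51) on chromosome 1, *Nrip1* (0.38) and *Ep300* (0.24) were higher, and each lost its call under 1 or more alternatives, *Ncoa2* only after each chromosome was centred (log2 fold change 0.13, adjusted p = 0.287).

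The list of genes known to respond to retinoic acid in embryonic cells held 22 genes, of which 16 were tested, 3 were higher and 3 were lower. *Skida1* rose from 0.580, 1.49 and 0.91 CPM to 5.64, 6.49 and 5.06 CPM (log2 fold change 2.57, standard error 0.31, adjusted p = 0.000863). *Gata6*, an endoderm transcription factor gene, rose from 3.92, 2.85 and 2.58 CPM to 10.4, 11.8 and 10.7 CPM (log2 fold change 1.80, adjusted p = 0.000391). It is also a marker of primitive endoderm, a list of 10 of which 9 were tested: *Gata6* and *Sox7* (log2 fold change 2.14) were higher and *Lama1* (-2.22) and *Pdgfra* (-0.80) were lower, and the list summed to 530 to 683 CPM in control and 508 to 584 CPM with *HOXA13*. The part of such cells in the *Gata6* values was not tested. *Cdx1*, a homeobox gene of the posterior embryo and intestine, rose from 9.54, 16.2 and 6.27 CPM to 28.5, 28.5 and 33 CPM (log2 fold change 1.51, adjusted p = 0.00625). The calls of *Skida1*, *Gata6* and *Cdx1* held under all 15 alternatives, and in none of the 3 did the groups overlap. The genes that fell changed less: the transglutaminase gene *Tgm2* fell by 0.35 on the log2 scale and the zinc finger gene *Zfp703* by 0.40, and they lost their calls in 9 and 4 of 15 alternatives. *Hoxb1*, a *HOX* gene known to respond early to retinoic acid, had 9 counts or fewer in every library.

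**Figure D5:**
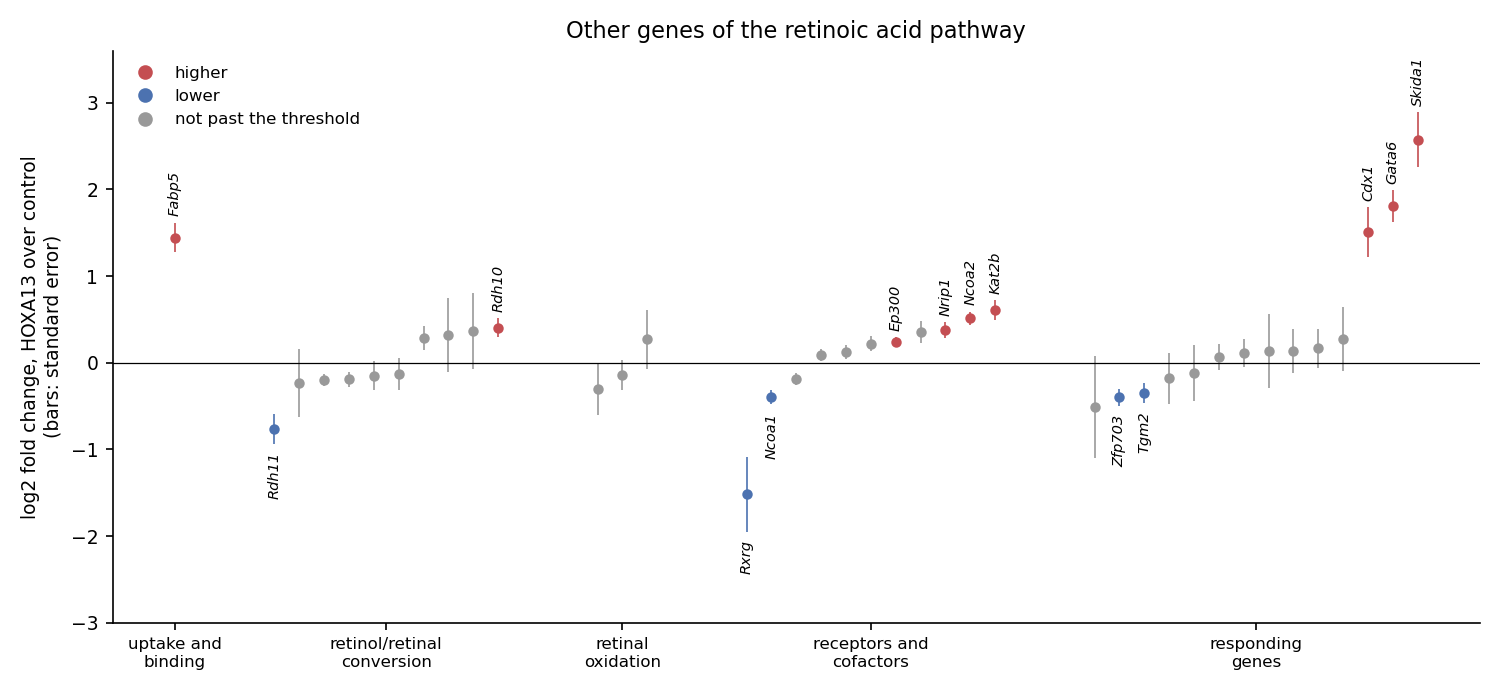
Log2 fold change, HOXA13 over control (y axis), with its standard error as a bar, of tested genes of the pathway outside the members, grouped by role along the x axis; red points were higher, blue points lower and grey points did not pass the threshold. Among the genes drawn, Skida1 at 2.57 and Rxrg at -1.52 are the largest changes in each direction, and the 3 retinal oxidation genes are all grey.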

How the data were processed

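Per the labels and the study's methods, the authors made stranded RNA-seq libraries, mapped reads of 75 bases to mm9 with TopHat2 2.0.14 (version from the submitters' processing notes, while the study's methods give another) and counted them per gene with HTSeq 0.6.1p1. They deposited raw counts, 1 table per library, with no normalization. The gene annotation, counting mode and strand setting are not given in the sources used here.

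The main analysis of the counts used edgeR (4.0.16, under R 4.3.3): filterByExpr at its defaults (minimum count 10, minimum total 15), TMM factors, glmQLFit and glmQLFTest without covariates, and Benjamini-Hochberg adjustment over all 13846 genes kept. Standard errors are the log2 fold change over the square root of F. CPM use TMM-scaled library sizes. Replicates of a group differed by more than sampling noise, and control libraries more than *HOXA13* libraries. The chi-square per degree of freedom was between 12.7 and 34.2 for pairs of control libraries and between 1.90 and 6.03 for pairs of *HOXA13* libraries. The code was tested on simulated counts. There were 15 alternatives: DESeq2 1.42.0, limma-voom (limma 3.58.1), robust estimation, a block for the replicate number, scaling by RLE or by library size only, leaving low counts unfiltered or requiring 10 in all libraries, centring each chromosome, and leaving out each library. The study's methods name DESeq2. Single ratios were compared by exact permutation with scipy 1.17.1. Gene positions and exon lengths are from GENCODE on NCBIM37 (mm9), on which 22215 of 24393 features were placed, and no exon of a member overlapped an exon of another gene there.

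The members and all gene lists were chosen with earlier results of these data known. Genes named are the members, listed pathway genes past the threshold with up to 6 others per list, markers past the threshold, and the 3 nearest profiles of each of *Cyp26a1*, *Rara* and *Rarb*; *Ppbp* was named after its values were seen. Some genes of the pathway list are included in the counts but are not reported here by name. Figures were drawn with matplotlib 3.10.9.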

Additional observations from a re-analysis of the deposited data

How the results depend on the processing

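Of the 20 pathway genes and members past the threshold, 10 were past it under all 15 alternatives, among them *Rara* and *Crabp1*. The number of members lower stayed between 2 and 3 when each library was left out in turn. Where it was 3, the added member was *Rarg* without control replicate 1. Without control replicate 2 the added member was *Cyp26a1*, kept by the filter only through the control libraries where it was high, which is no support. The number higher, which is *Rarb* alone, was 0 with DESeq2 and 0 to 1 when each library was left out. Over all genes, leaving out each library gave 2038 to 5007 genes past the threshold, 1134 to 2428 higher and 904 to 2579 lower, with 2038, 2104 and 2311 past the threshold without *HOXA13* replicates 1, 2 and 3, each a fit on fewer libraries. For the listed pathway genes these numbers were 9 to 20 past the threshold, lowest without *HOXA13* replicate 3, and 3 to 9 lower (4 without control replicate 3 and 3 without *HOXA13* replicate 3). The sign of *Rxra*, which was close to 0, turned to 0.0067 with each chromosome centred, and lay between -0.0655 and 0.0675 when each library was left out (0.0139 without control replicate 1 and 0.0675 without *HOXA13* replicate 1). Replicates with the same number did not deviate together (correlations of -0.02, -0.05 and 0.02), so the numbers do not pair the libraries. With the replicate block, which gave 2 fibroblast markers as higher, 3172 genes passed in place of 3836, 1696 higher and 1476 lower, with 3 members and 14 pathway genes among them. Library size alone moved the median log2 fold change of all genes by -0.07. Depth limits genes such as *Rarb*, *Rxrg* and *Cyp26a1*, whose libraries went down to 14, 6 and 3 counts.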

Other observations

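The direct repeat with spacing 5 was followed beyond the members, a description chosen after the data had been seen. Its 32 promoter windows belong to 31 genes, of which 12 were in the tables and 5 were tested. Of these, *Rarb* and *Ppbp* were higher with *HOXA13*, while *Blvrb*, *Cfap45* and *Syndig1* did not pass, and 2 of 5 stand beside 27.7% of all genes tested. *Ppbp*, a chemokine gene, was at 4.19, 8.97 and 9.25 CPM in control and at 13.4, 12.5 and 15.6 CPM with *HOXA13* (log2 fold change 0.90, standard error 0.27, adjusted p = 0.0418), without overlap. *Syndig1* was at 2.27, 2.38 and 3.13 CPM in control and at 0.812, 1.93 and 0.680 CPM with *HOXA13*, which is -1.16 on the log2 scale (adjusted p = 0.0556). It passed as lower with DESeq2 (adjusted p = 0.0392), with limma-voom (0.0362), and in the edgeR fits with library size alone (0.0447), without a filter on low counts (0.0487), and without control replicate 1 (0.0389), control replicate 2 (0.0427) or *HOXA13* replicate 2 (0.0161). *Ppbp* passed with DESeq2 (0.00682) but not with library size alone (0.0529), nor without control replicate 3 (0.0529) or any 1 *HOXA13* library (0.0947 to 0.137). *Cyp26a1* was among the 7 not tested, and 3 of those 7 had 3 counts or fewer in every library. The genes with this repeat thus held members that moved up, members that did not pass and *Cyp26a1*, whose *HOXA13* libraries lay below all controls.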
